A study of Mus musculus with 10 samples.

Results

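The genes described here are 7 of the 55414 genes in the count table: the formyl peptide receptors Fpr1, Fpr2 and Fpr3, the chemerin receptor Cmklr1, the annexins Anxa1 and Anxa2, and the serum amyloid Saa3. They were chosen by name, and each matched 1 Ensembl identifier. They were read in 10 RNA sequencing libraries of polyadenylated RNA from macrophages of mouse spleen, which had been taken out with magnetic beads that bind F4/80, a protein on the surface of mature macrophages in mice. Of these libraries, 5 came from mice with the genotype label C57BL/6N (WT) and 5 from mice labelled Fpr2KO, which the study's design text calls Fpr2-/-. No treatment, age or sex is given in the labels, nor are the strain background of the knockout line and the part of Fpr2 that was removed. All 5 Fpr2KO titles carry the name KO Mac1, and whether the libraries of a group came from separate mice is not given, so all p-values refer to the spread among these libraries only, and that spread may be technical.

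Formyl peptide receptors are G protein-coupled receptors of phagocytes. They bind formylated peptides released by bacteria and by damaged mitochondria, and through inhibitory G proteins they drive chemotaxis, granule release and the oxidative burst. Fpr2 also binds host ligands: annexin A1, a phospholipid-binding protein linked to the resolution of inflammation, and serum amyloid A, an acute-phase protein linked to its onset. Cmklr1 binds chemerin, a chemoattractant that is cleaved to its active form at sites of inflammation, and has been named as a receptor for the lipid mediator resolvin E1. In mouse the receptor family lies in a cluster on chromosome 17 with several duplicated genes and pseudogenes.

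Totals ranged from 15865820 to 19060188 counts per library. Of 14 markers of splenic red pulp macrophages, led by Vcam1, Csf1r and Hmox1, all 14 were read in both groups, with summed levels of 9794 to 12626 CPM (a gene's reads as a share of the TMM-scaled library size, on edgeR's CPM scale) in WT and 9737 to 12576 CPM in Fpr2KO. Markers of other cells were read too. The summed neutrophil markers were at 944 to 1572 CPM in WT and 535 to 995 CPM in Fpr2KO, those of classical monocytes at 1162 to 1667 and 867 to 1156 CPM, those of erythroid cells at 1653 to 6568 and 4576 to 10774 CPM, and those of B cells at 2560 to 3893 and 3335 to 4470 CPM. No marker of the 12 lists examined was at 0 in all libraries, and 0 passed the FDR (the adjusted p of edgeR, called at 0.05). The share of mitochondrial reads was 4.83% to 6.09% in WT and 3.22% to 6.04% in Fpr2KO, where 4 of 5 libraries lay below all WT libraries and replicate 2 did not.

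The coding sequences of the receptors are shown first because they set how far reads of 1 gene can be told from those of another. Sequences are from GENCODE M21 transcripts on GRCm38, 5′ to 3′, and capitals mark the bases that differ from Fpr2. The first 90 coding bases of Fpr2 and Fpr3, and the matching stretch of Gm5966, an Fpr2-like pseudogene 26.3 kb beyond the end of Fpr2, were:
Fpr2: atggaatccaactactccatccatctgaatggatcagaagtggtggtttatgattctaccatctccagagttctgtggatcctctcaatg
Fpr3: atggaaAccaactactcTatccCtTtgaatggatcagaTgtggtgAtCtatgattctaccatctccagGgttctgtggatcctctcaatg
Gm5966: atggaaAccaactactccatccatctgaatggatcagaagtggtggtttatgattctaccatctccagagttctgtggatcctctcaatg
Fpr3 differed from Fpr2 at 8 of these bases and Gm5966 at 1. Over the whole coding sequence of 1053 bases, Fpr2 and Fpr3 were identical at 88.1% of positions, with a longest identical run of 94 bases. The pseudogene was identical to Fpr2 at 95.7% of 1044 aligned bases, with a longest run of 161 bases. Fpr1 was more distant, at 69.8% identity with Fpr2 and 70.0% with Fpr3.

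The stretch around the longest run that Fpr1 shares with Fpr2 (50 bases) is shown to compare all of the 3 receptors in 1 place. The longest run of Fpr2 with Fpr3 lies elsewhere, at coding bases 217 to 310. The stretch covers coding bases 353 to 442 of Fpr2 and 377 to 466 of Fpr1:
Fpr2: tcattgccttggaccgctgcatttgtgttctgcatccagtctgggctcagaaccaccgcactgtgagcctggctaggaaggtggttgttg
Fpr3: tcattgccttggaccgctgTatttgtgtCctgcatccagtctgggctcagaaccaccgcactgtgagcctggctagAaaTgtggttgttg
Fpr1: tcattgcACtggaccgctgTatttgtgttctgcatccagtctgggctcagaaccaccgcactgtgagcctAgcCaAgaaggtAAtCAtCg
Of the distinct 31-base sequences in the annotated transcripts of Fpr2, 43.0% also occur in another gene, 37.6% in Gm5966 and 13.5% in Fpr3. For Fpr3 the share was 14.9% and for Fpr1 it was 1.55%. Reads of Fpr1 could therefore be assigned over nearly all of the gene. In the 5′ part of the Fpr2 coding sequence, 31-base sequences often had another possible origin. A longer read can be told apart wherever it reaches past the shared bases, and the share of reads affected was not measured. Anxa1 shared 0% of its 31-base sequences with other genes, Cmklr1 0.511%, Anxa2 1.86% and Saa3 7.56%.

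**Figure D1:**
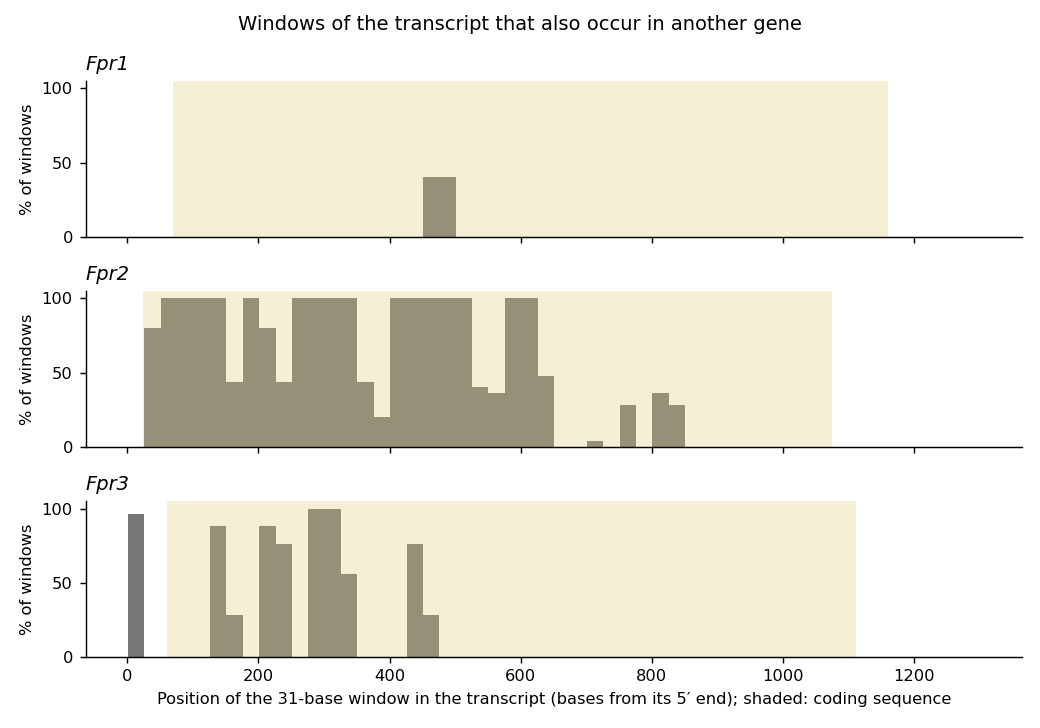
Percent of 31-base windows that also occur in the transcripts of another annotated gene (vertical axis), in bins of 25 bases along the annotated transcripts of Fpr1, Fpr2 and Fpr3 (horizontal axis, bases from the 5′ end). Shared windows of Fpr2 lie mostly in the 5′ part of its coding sequence (shaded), and Fpr1 has shared windows in a single short stretch.

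Fpr2 itself was read in every WT library and in no Fpr2KO library. The gene spans 17887824 to 17893952 on chromosome 17, plus strand (GRCm38 here and below). Its level was 20.7, 21.7, 33.6, 19.2 and 19.6 CPM in WT replicates 1 to 5, from 1983 reads in all. The third replicate stood above the other 4, which lay close together, and the groups did not overlap. In Fpr2KO there were 0 reads in each of 5 libraries, so that Fpr2 was at least 667-fold lower when the knockout group is set to a floor of 3 counts in all (edgeR FDR = 1.44e-06). This is a check of the genotype labels, since Fpr2 is the gene knocked out, and its direction is not a separate result. The reads matched the label in all 10 libraries.

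Fpr1, a receptor for formylated peptides, starts 3883 bases from Fpr2 and is transcribed away from it, at 17876471 to 17883940 on the minus strand. The WT libraries held Fpr1 at 29.4, 33.3, 41.0, 39.9 and 37.1 CPM and the Fpr2KO libraries at 40.5, 49.8, 43.2, 32.8 and 39.4 CPM. The ranges overlapped, with 2 Fpr2KO libraries above all WT libraries. The ratio of Fpr2KO to WT was 1.14 with a 95% interval of 0.958 to 1.35 (log2 fold change 0.19 with an SE of 0.12, edgeR FDR = 0.625). The interval holds both a rise of up to 1.35-fold and no change. Per kb of annotated exon, WT libraries held 27.3 ± 3.62 CPM per kb of Fpr1 and 17.7 ± 4.65 of Fpr2 (SD, n = 5). This order depends on how reads of shared sequence were counted, which is not given. With only the sequence found in no other gene taken as length, a setting added after the data were seen, the values were 27.7 ± 3.68 and 31.1 ± 8.16 CPM per kb. No reads were removed for this, so both values are too high if reads of shared sequence were counted. The 250 bases before the annotated start of each receptor gene, from RefSeq on GRCm38.p6 (Fpr2 on the plus strand at chr17:17887574-17887823, Fpr1 on the minus strand at chr17:17883940-17884189), are shown because the genes start on either side of the same interval:
Fpr2: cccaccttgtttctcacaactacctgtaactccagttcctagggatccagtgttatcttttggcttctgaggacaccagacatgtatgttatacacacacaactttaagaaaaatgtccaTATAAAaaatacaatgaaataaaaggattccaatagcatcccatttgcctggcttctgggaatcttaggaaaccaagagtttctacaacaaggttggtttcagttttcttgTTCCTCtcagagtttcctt
Fpr1: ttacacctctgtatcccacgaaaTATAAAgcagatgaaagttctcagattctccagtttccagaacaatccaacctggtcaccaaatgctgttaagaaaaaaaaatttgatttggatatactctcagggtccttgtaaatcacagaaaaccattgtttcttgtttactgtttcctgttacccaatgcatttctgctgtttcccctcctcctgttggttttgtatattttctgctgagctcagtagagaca
Capitals mark matches to 5 motifs searched on both strands: the PU.1 core GAGGAA, the TATA box TATAAA, the C/EBP motif TTGCNNAA, the AP-1 motif TGANTCA, and the NF-kB motif (0.356% of windows, with no match in any of the 7 genes). The Fpr2 window held a PU.1 core 19 bases before the start, a motif found in 23.3% of 32851 annotated promoter windows of this length. Both windows held a TATA box motif (12.4% of windows), 130 bases before the start in Fpr2 and 227 in Fpr1. Among the other genes, Fpr3, Cmklr1 and Anxa1 also held a PU.1 core, Anxa1 and Anxa2 a TATA box motif, Anxa1 and Saa3 a C/EBP motif (9.56% of windows), and Anxa2 an AP-1 motif (6.75% of windows). All 7 genes were matched in the promoter table. A missing match says only that these letters are not in the window.

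Fpr3, the closest in coding sequence to Fpr2 of the receptors compared, was read in 4 of the Fpr2KO libraries. It had 0 reads in all 5 WT libraries and 1, 2, 0, 2 and 4 reads in Fpr2KO replicates 1 to 5, or 9 in all. That is 2.97-fold higher when the WT group is set to a floor of 3 counts in all. This value leaves out the counting error of the 9 reads and is not a lower bound. Its level in Fpr2KO was 0.0987 ± 0.073 CPM (SD, n = 5), under the level needed for the main test. An exact permutation test of the CPM values, two-sided over the 252 assignments, gave p = 0.0476. Values without ties could reach 0.00794 in this test. The libraries at 0 reads are tied, so 0.0476 is the smallest p that these values allow. With no filter on low counts, edgeR gave Fpr3 an FDR of 0.363 over all genes, so the difference did not pass. Of 274 genes in the table with 9 reads in all, 5 had all 9 in Fpr2KO and 1 had all 9 in WT, and 2 of those 5 were read in at least 4 Fpr2KO libraries. Fpr3 itself is counted in the 274, the 5 and the 2.

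The annotation ties Fpr3 to the start of Fpr2. The first exon of transcript Fpr3-201, 48 bases at 17887852 to 17887899, lies wholly inside the first exon of Fpr2-202 (17887824 to 17887899), and its second exon, which holds the whole coding sequence, starts 76.5 kb beyond the end of Fpr2. In the RefSeq promoter table the window of Fpr3 lies directly before that coding exon instead. A read that lies in the shared exon alone cannot be assigned to either gene. Within 100 kb beyond the end of Fpr2, 4 of 6 annotated genes had reads: the pseudogenes Gm7535, Gm5966 and Fpr-rs5, and Fpr3. Gm5966 had 0, 1, 0, 0 and 0 reads in WT and 5, 1, 5, 1 and 3 in Fpr2KO, or 14.9 times as many per counted read (95% interval from counting error, 2.29 to 626), and did not pass in edgeR with no filter (FDR = 0.344). Of 141 genes with 16 reads in all, 4 lay as far toward Fpr2KO and 0 as far toward WT. Gm5966 itself is counted in the 141 and the 4. Gm7535 had 2 reads in WT and 9 in Fpr2KO, and Fpr-rs5 had 0 and 2. These 4 genes together held 0, 2, 0, 1 and 0 reads in WT replicates 1 to 5 and 7, 3, 9, 6 and 10 reads in Fpr2KO. The groups of summed reads did not overlap, 35 reads against 3, but the sum was chosen after the reads were seen and was not tested. The closest libraries of the groups were WT replicate 2 with 2 reads and Fpr2KO replicate 2 with 3. Gm5966 is annotated under 2 identifiers at the same place, of which the other had 0 reads. The annotation used for counting is not given, and the table does not give where in a gene a read lies.

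**Figure D2:**
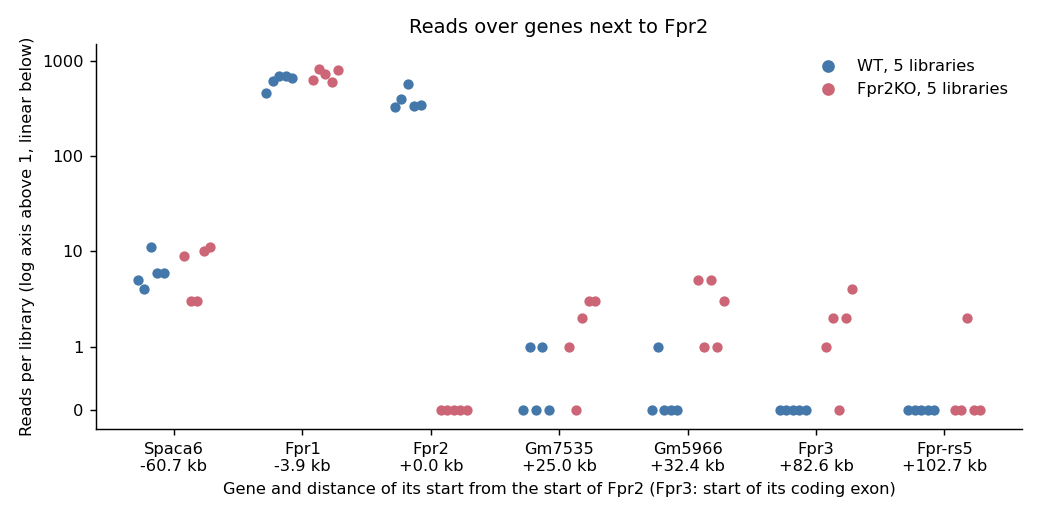
Reads per library (vertical axis, log scale above 1 and linear below) over genes with reads near Fpr2, in order along the chromosome with the distance of each start from that of Fpr2, for Fpr3 from the start of its coding exon (horizontal axis). Fpr2 has 0 reads in the 5 Fpr2KO libraries, Fpr1 overlaps between the groups, and Gm7535, Gm5966, Fpr3 and Fpr-rs5 have 3 reads in WT and 35 in Fpr2KO.

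On the other side, Spaca6 and Fpr1 were the genes with reads within 100 kb, and their ranges overlapped between the groups. Farther off on that side, Gm26873, an antisense gene 475.8 kb from Fpr2, had 2, 0, 0, 3 and 0 reads in WT and 2, 0, 3, 8 and 12 in Fpr2KO, too few to be tested. Within 500 kb of Fpr2, 13 of 27 other annotated genes had reads and 4 were tested: Riok2, Lix1, Lnpep and Fpr1. None of the 4 passed the FDR by edgeR, and 0 had an unadjusted p under 0.05. The remaining receptors of the family, Fpr-rs3, Fpr-rs4, Fpr-rs6 and Fpr-rs7, had 0 reads in all 10 libraries.

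Cmklr1, on chromosome 5 at 113612354 to 113650426, was read at 29.5, 40.0, 39.9, 38.9 and 34.2 CPM in WT and at 36.6, 33.2, 34.4, 26.0 and 33.4 CPM in Fpr2KO. The first WT library and the fourth Fpr2KO library were the lowest of their groups, and the groups overlapped. The ratio was 0.896 with a 95% interval of 0.762 to 1.05 (log2 fold change -0.16 with an SE of 0.11, edgeR FDR = 0.657).

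Anxa1, on chromosome 19 at 20373428 to 20390944, had the lowest estimate of the 5 genes tested other than Fpr2. It was read at 143, 155, 141, 76.2 and 102 CPM in WT and at 98.9, 104, 83.1, 68.4 and 91.7 CPM in Fpr2KO. WT replicates 1, 2 and 3 stood above every Fpr2KO library, whereas WT replicates 4 and 5 lay among them. The group levels were 123 ± 33.2 and 89.3 ± 14.1 CPM (SD, n = 5), a ratio of 0.723 with a 95% interval of 0.547 to 0.955 (log2 fold change -0.47 with an SE of 0.18). The unadjusted p was 0.0261 by edgeR, and Anxa1 did not pass over all genes (edgeR FDR = 0.446). With each library left out in turn the log2 fold change lay between -0.60 (FDR 0.107, without WT replicate 4) and -0.37 (FDR 0.765, without WT replicate 2), and the highest FDR was 0.789, without Fpr2KO replicate 4. The unadjusted p was under 0.05 in 12 of 17 alternatives. The cytosol of neutrophils is rich in annexin A1, and 13 of 13 neutrophil markers tested had lower estimates in Fpr2KO (median log2 fold change -0.65) and 0 passed the FDR. The same held for 9 of 9 classical monocyte markers (median -0.72), also with 0 past the FDR. Platelet markers (7 of 7 lower, median -0.63) and basophil and mast cell markers (7 of 7 lower, median -0.46) were lower in estimate too, whereas 0 of 12 erythroid markers (median 0.99) and 0 of 8 B cell markers (median 0.21) were. Among nonclassical monocyte markers 6 of 7 were lower, and among red pulp macrophage markers 7 of 14. Of all genes tested, 46.8% had a lower estimate. The part of these cell types in the Anxa1 estimate was not tested. In bulk RNA, fewer cells of a type and less RNA per cell cannot be told apart.

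Anxa2, which binds membranes together with S100a10 and is encoded on chromosome 9 at 69453620 to 69491795, was read at 162, 182, 197, 159 and 163 CPM in WT. In Fpr2KO it was at 168, 127, 129, 139 and 171 CPM. Fpr2KO replicates 2, 3 and 4 lay below all WT libraries and replicates 1 and 5 within their range. The ratio was 0.850 with a 95% interval of 0.729 to 0.991 (log2 fold change -0.23 with an SE of 0.10, unadjusted p = 0.0398, edgeR FDR = 0.486), so it did not pass either.

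Saa3, the serum amyloid A gene that macrophages express under inflammatory stimuli, lies on chromosome 7 at 46711998 to 46715700. It was near the floor of detection, with 6, 21, 22, 10 and 4 reads in WT and 16, 2, 10, 10 and 22 reads in Fpr2KO. The libraries of each group spread widely, and the groups overlapped, with 2 WT libraries above all Fpr2KO libraries and 1 Fpr2KO library below all WT libraries in CPM. The ratio was 0.942 with a 95% interval of 0.439 to 2.02 (edgeR FDR = 0.970). The liver-type genes Saa1 and Saa2, and Saa4, had 0 reads in all 10 libraries.

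**Figure D3:**
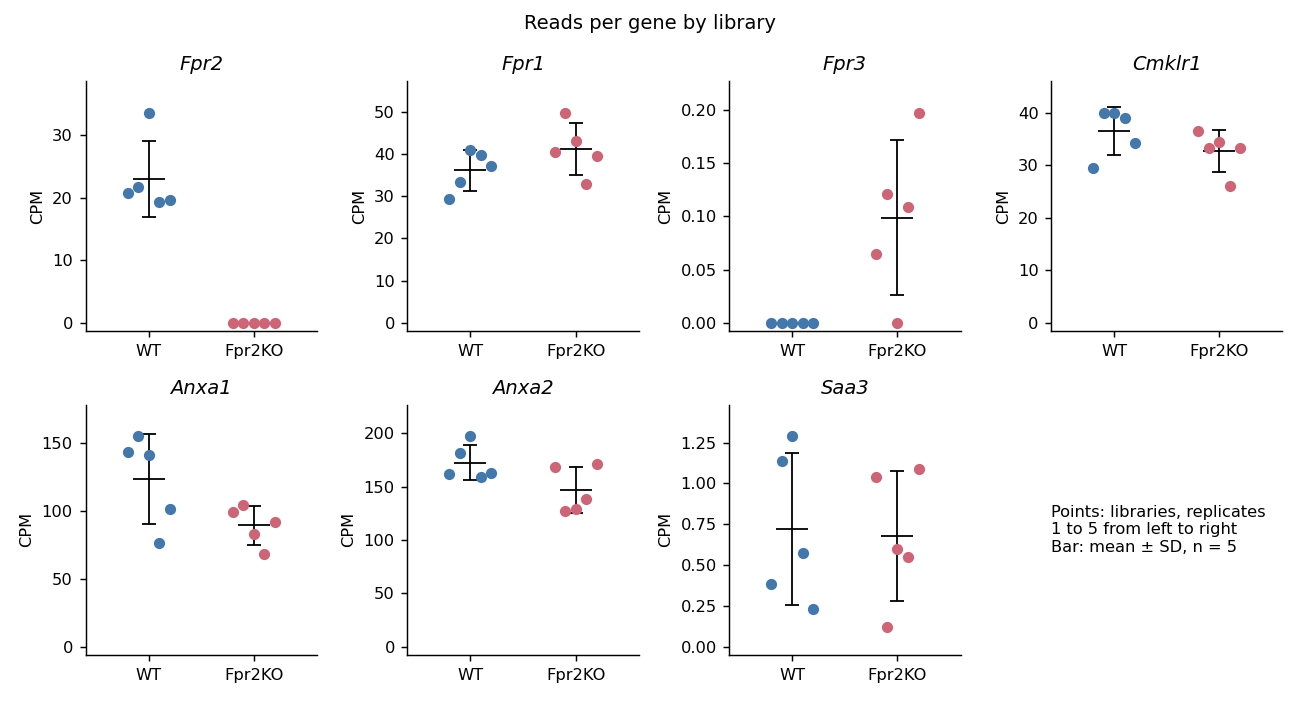
Level of each of the 7 genes in CPM (vertical axis) in the 5 WT and 5 Fpr2KO libraries (points, replicates 1 to 5 from left to right), with mean ± SD as bars. The groups separate for Fpr2 (19.2 to 33.6 CPM against 0) and overlap for Fpr1, Cmklr1, Anxa1, Anxa2 and Saa3. Fpr3 is at 0 in WT and at most 0.198 CPM in Fpr2KO.

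In all, 6 of the 7 genes had enough reads to be tested and 1 of them, Fpr2, passed the FDR of 0.05, where 0.0682% of the 14669 genes tested passed in either direction, 0.0614% lower and 0.00682% higher. At an unadjusted p under 0.05, 3 of the 6 were lower in Fpr2KO (Fpr2, Anxa1 and Anxa2), and 0 were higher, where 4.92% of all genes tested were lower, 4.88% higher and 9.8% either. Fpr2 alone had groups that did not overlap, as had 1.39% of all genes tested, 0.566% lower and 0.825% higher. Fpr2 is the gene knocked out, so its place in each of these counts is a check of the labels only. Of the genes tested other than Fpr2, none passed the FDR or had groups that did not overlap. Only Anxa1 and Anxa2 among them had an unadjusted p under 0.05. Set per kb of annotated exon, the order of the levels in WT was Anxa2 (46.3 ± 4.40 CPM per kb), Anxa1 (42.4 ± 11.4), Fpr1 (27.3 ± 3.62), Fpr2 (17.7 ± 4.65), Cmklr1 (10.7 ± 1.35) and Saa3 (0.276 ± 0.179; SD, n = 5), with Fpr3 at 0. The ranges of Anxa2 and Anxa1, of Anxa1 and Fpr1, and of Fpr1 and Fpr2 overlapped, and those of Fpr2 and Cmklr1 and of Cmklr1 and Saa3 did not. The place of Fpr2 below Fpr1 is not secure, since 43.0% of the 31-base sequences of Fpr2 are shared. The exon length joins all annotated transcripts of a gene, 1 for Fpr1, 8 for Anxa1 and 6 for Anxa2. Which of these transcripts were read is not known, so the order in both groups depends on this choice of length. In Fpr2KO the order was Anxa2 (39.4 ± 5.70), Fpr1 (31.1 ± 4.67), Anxa1 (30.7 ± 4.85), Cmklr1 (9.60 ± 1.17), Saa3 (0.260 ± 0.153) and Fpr3 (0.0778 ± 0.0575), and the ranges of Anxa2 and Fpr1, of Fpr1 and Anxa1 and of Saa3 and Fpr3 overlapped.

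The wider pathway was described by 8 lists with 67 further genes, of which 52 were tested and 0 passed the FDR by edgeR. Of these 52, 40 had lower estimates in Fpr2KO, against 46.8% of all genes tested, and their median log2 fold change was -0.08, against 0.01 for all genes tested. At an unadjusted p under 0.05, 10 of the 52 were lower and 0 higher, where 4.92% and 4.88% of all genes tested were. The lists were chosen with earlier results of these data known, so such counts, here and below, are a description only. Of the other annexins, 6 of 7 tested had lower estimates with a median of -0.04, and 0 had an unadjusted p under 0.05. Anxa4 differed by -0.13 on the log2 scale (SE 0.08), Anxa5 by -0.09 (SE 0.10), Anxa9 by -0.15 (SE 0.16) and Anxa7 by -0.04 (SE 0.07).

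Among the S100 proteins that bind annexins, S100a11, a partner of annexin A1, was at 246 ± 23.1 CPM in the WT libraries and at 213 ± 18.7 CPM in those of Fpr2KO (log2 fold change -0.21 with an SE of 0.09, edgeR FDR = 0.462). S100a10, the partner of annexin A2, differed by -0.02 on the log2 scale (SE 0.10), S100a6 by -0.16 (SE 0.20) and S100a4 by 0.03 (SE 0.17). Of the genes for other formyl peptide receptor ligands, 5 of 6 were tested. Plaur, the urokinase receptor that gives rise to a chemotactic fragment, differed by -0.32 on the log2 scale (SE 0.13, edgeR FDR = 0.448). Hebp1, the source of the peptide F2L, had a log2 fold change of 0.19 (SE 0.12), the cathelicidin gene Camp of -0.40 (SE 0.33) and the prion protein gene Prnp of 0.15 (SE 0.13).

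Around Cmklr1, the chemerin genes Ccrl2 and Rarres2 varied widely between libraries. Ccrl2, which binds chemerin without signalling by G proteins, was at 149 ± 58.6 CPM in the WT libraries and at 89.2 ± 25.0 CPM in those of Fpr2KO (SD, n = 5; log2 fold change -0.74 with an SE of 0.31, edgeR FDR = 0.485), and Rarres2, which encodes chemerin, was at 1.39 ± 0.376 and 2.02 ± 0.695 CPM (log2 fold change 0.53 with an SE of 0.28, edgeR FDR = 0.560). Ltb4r1, a leukotriene B4 receptor, differed by -0.42 on the log2 scale (SE 0.20) and the nuclear receptor gene Rora by -0.17 (SE 0.18). Gpr101 had 0 reads in all libraries. The signalling genes below the receptors had a median log2 fold change of -0.04 over 21 genes tested. The lowest p-values were those of 3 subunits of phosphoinositide 3-kinase gamma: the adaptor Pik3r6 (log2 fold change -0.50 with an SE of 0.17, edgeR FDR = 0.365), the adaptor Pik3r5 (-0.27 with an SE of 0.11, edgeR FDR = 0.444) and the catalytic Pik3cg (-0.21 with an SE of 0.10, edgeR FDR = 0.507), followed by Rac1 (-0.13, SE 0.10).

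Other chemoattractant receptors had the lowest median of these lists, -0.37, with 11 of 11 lower in Fpr2KO and 4 lower at an unadjusted p under 0.05, where 46.8% of all genes tested had a lower estimate and 4.92% were lower at that p. C5ar1, the receptor for complement fragment C5a, was at 28.6 ± 9.61 CPM in the WT libraries and at 15.0 ± 3.16 CPM in those of Fpr2KO, with all 5 Fpr2KO libraries below all WT libraries, as 0.566% of all genes tested were (log2 fold change -0.93 with an SE of 0.23, edgeR FDR = 0.192). It passed by DESeq2, with an adjusted p = 0.00483. Cxcr4, the receptor for CXCL12, differed by -0.62 on the log2 scale (SE 0.21), the neutrophil chemokine receptor gene Cxcr2 by -0.63 (SE 0.24) and Ccr1 by -0.57 (SE 0.24), none of them past the FDR by edgeR. Neutrophils and monocytes are known to carry several of these receptors, their markers had lower estimates in Fpr2KO as given above, and their part in these values was not tested. The lists are not separate: Cxcr2 is also among the neutrophil markers, Ccr2 among those of classical monocytes and Cx3cr1 among those of nonclassical monocytes.

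**Figure D4:**
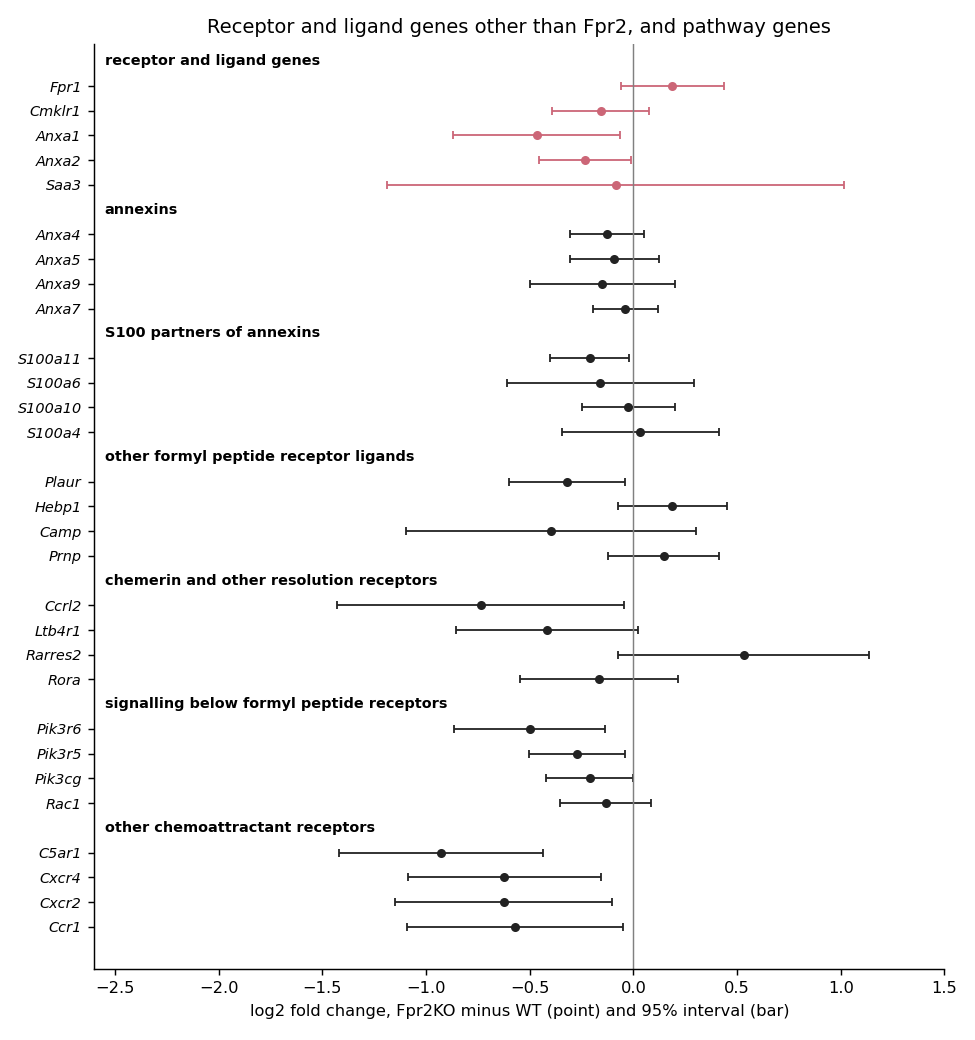
Log2 fold change of Fpr2KO minus WT (horizontal axis, points) with 95% intervals (bars) for the 5 tested genes other than Fpr2 (red) and for up to 4 genes with the smallest p-values in each pathway list (black). The intervals are not adjusted for the number of genes, and 0 of these genes passed the FDR by edgeR. The chemoattractant receptors C5ar1, Cxcr4, Cxcr2 and Ccr1 lie farthest to the left together with Ccrl2.

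Across the 10 libraries, after group means were subtracted, each of the 5 tested genes other than Fpr2 was set against the others and against marker lists, and the cell composition behind these values was not tested. Cmklr1 and the red pulp macrophage markers gave the highest coefficient shown here (Pearson's r = 0.92, exact permutation p = 0.00708 within groups, adjusted p = 0.224 over 70 relations; Spearman's rho = 0.78, exact permutation p = 0.0125, adjusted p = 0.292; n = 10), and r was 0.80 without the 2 libraries farthest from the median. For Anxa1 the values with the neutrophil markers were similar in sign (Pearson's r = 0.65, exact permutation p = 0.00958, adjusted p = 0.224; Spearman's rho = 0.72, exact permutation p = 0.00833, adjusted p = 0.292; n = 10), and r was 0.71 without the 2 farthest libraries. Fpr1 had an r of 0.67 with the red pulp macrophage markers (exact permutation p = 0.0479, adjusted p = 0.373; Spearman's rho = 0.50, exact permutation p = 0.137, adjusted p = 0.720; n = 10), which fell to 0.083 without the 2 farthest libraries and so rests on them. Anxa2 and Saa3 were correlated by the raw p (Pearson's r = 0.81, exact permutation p = 0.00528, adjusted p = 0.224; Spearman's rho = 0.77, exact permutation p = 0.00729, adjusted p = 0.292; n = 10), with an r of 0.87 without the 2 farthest libraries. In all, 9 of 70 relations had a raw Pearson p under 0.05 and 0 passed after adjustment. The others of the 9 were Fpr1 with Cmklr1 (r = 0.70, and -0.15 without the 2 farthest libraries), Cmklr1 with B cell markers (-0.68), and Anxa2 with the markers of B cells (-0.67), NK cells (-0.67) and nonclassical monocytes (0.66, and 0.0069 without the 2 farthest libraries). For Anxa1 the r with B cell markers was larger in size than that with neutrophil markers, at -0.70 (exact permutation p = 0.0656, adjusted p = 0.390). With classical monocyte markers the r of Anxa1 was -0.10 (exact permutation p = 0.838, adjusted p = 0.977).

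**Figure D5:**
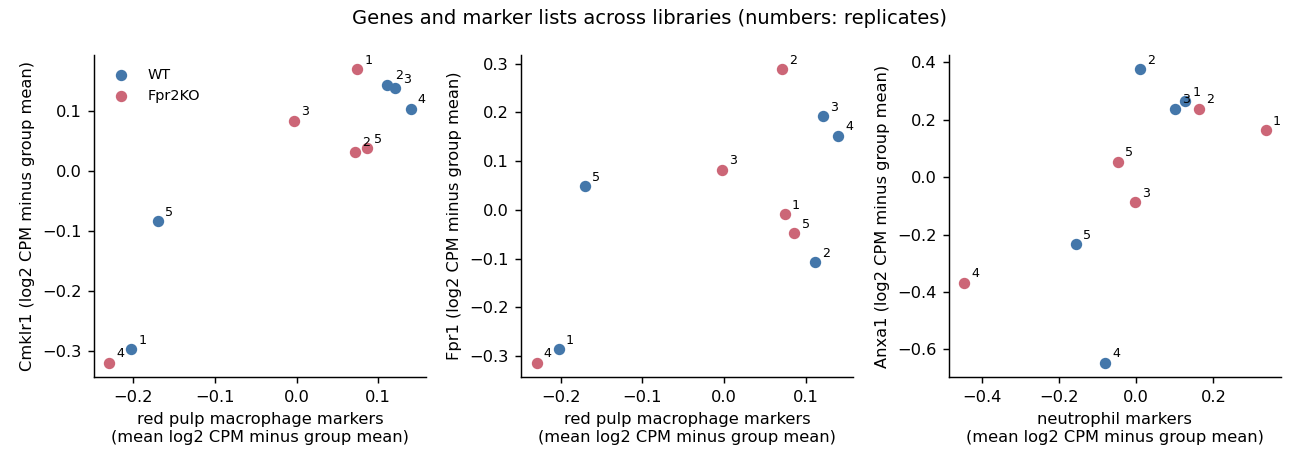
Log2 CPM of Cmklr1, Fpr1 and Anxa1 minus the group mean (vertical axes) against the mean log2 CPM of a marker list minus the group mean (horizontal axes), 1 point per library with its replicate number. WT replicate 1 and Fpr2KO replicate 4 are lowest for both Cmklr1 and Fpr1, and WT replicate 4 is lowest for Anxa1.

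The genes whose pattern over the 10 libraries was most like that of Fpr1 after group means were subtracted were Parp12 (Pearson's r = 0.96), the adhesion molecule gene Vcam1 (0.93) and the Fc receptor gene Fcgr1 (0.91). For Cmklr1 they were Rufy3 (0.97), Vstm4 (0.96) and the cathepsin gene Ctsb (0.94). For Anxa1 they were Zfp622 (0.96), Tagap (0.95) and Tnfaip3, an inhibitor of NF-kB signalling (0.94), which averaged 955 CPM in WT against 643 CPM in Fpr2KO (log2 fold change -0.57 with an SE of 0.25, edgeR FDR = 0.489). For Anxa2 they were Ptdss1 (0.95), Dusp3 (0.93) and Agpat4 (0.92), and for Saa3 Vsig10 (0.96), Dusp3 (0.95) and Arhgap23 (0.94). These are the highest of 9535 values (9536 for Saa3) over 10 libraries and are given as a description, with no test.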

How the data were processed

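The deposited values are whole-number counts of reads for each gene and library, with no scaling applied. HTSeq 0.10.0 and FastQC 0.10.1 are listed in the submitters' processing notes, as are the builds mm10 and GRCm38. The sources used here do not give the aligner, strand setting, treatment of multiply mapped reads or annotation release. Per the labels' protocols, libraries were made with the NEBNext Ultra II RNA kit from RNA of the Qiagen RNeasy Plus Universal kit. GENCODE M21 matched 52081 of 55414 identifiers.

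The main test, run with edgeR 4.0.16 under R 4.3.3, used filterByExpr (14669 genes kept), TMM, robust quasi-likelihood fits, glmQLFTest of Fpr2KO against WT, two-sided, with Benjamini-Hochberg adjustment over all genes tested and an FDR of 0.05. The SE is the log2 fold change divided by the square root of F, in size. CPM uses TMM-scaled library sizes, and log2 CPM a prior count of 2. CPM per kb divides by all annotated exon bases of a gene. Intervals and floors from reads cover counting error only. All 20 within-group pairs of libraries differed by more than sampling noise (chi-square per degree of freedom of 11.2 or more). Alternatives used DESeq2 1.42.0 and limma 3.58.1 (voom), other scalings and filters, the replicate number as a block, and leaving out each library. The fit was tested on simulated counts. The exact test of Fpr3 was added after its counts were seen. Correlations used all 14400 within-group permutations. The genes and lists were chosen with earlier results of these data known. Named genes are the 7, those of each list with the smallest p-values (up to 4) or with 0 reads in all libraries, the most abundant markers, the genes most like each of the 7, and neighbours within 500 kb of Fpr2.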

Additional observations from a re-analysis of the deposited data

Results flagged for a closer look

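Of 60 groups of 5 libraries examined for a library far from the other 4, 4 were met, and chance gives about 1 in 20. Fpr2 in WT replicate 3 was at 33.6 CPM, and the other 4 WT libraries at 19.2 to 21.7 CPM. Ltb4r1 in Fpr2KO replicate 5 was at 13.6 CPM, and the others at 6.61 to 7.43 CPM. Pik3r6 in the same library was at 19.8 CPM, and the others at 13.7 to 14.5 CPM. Rac1 in WT replicate 2 was at 432 CPM, and the others at 339 to 363 CPM.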

How the results depend on the processing

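Fpr2 passed under all 17 alternatives, and it was the only one of the 7 genes that did under any of them. The log2 fold changes of Fpr1, Cmklr1, Anxa1 and Anxa2 kept their direction under all 17, with the lowest FDR for Anxa1 (0.107 without WT replicate 4). Saa3 changed sign in 3 fits that left out 1 library: 0.14 without WT replicate 2, 0.22 without WT replicate 3 and 0.16 without Fpr2KO replicate 2, in a range of -0.34 to 0.22, and the filter of 1 CPM in 5 libraries removed it. The cause was not tested. The count of called genes over the whole table was 10, against 62 with no filter and 185 with DESeq2, and 8 to 51 when 1 library was left out (26 without WT replicate 4, 51 without WT replicate 5, 26 without Fpr2KO replicate 2). Pathway genes past the threshold were 0, against 1 with DESeq2 (C5ar1). With the replicate block 64 genes and 2 pathway genes (Ccr1 and Cxcr4) passed. The main test did not treat the replicate numbers as pairs. Deviations of same-numbered libraries correlated at -0.10, 0.29, -0.10, 0.25 and -0.24, and for 2 of 5 numbers the best match was the library with the same number. These values cannot tell whether same-numbered libraries were handled together. Fpr3 and the pseudogenes beside Fpr2 had too few reads for the main test. With only unshared sequence as length, Fpr2 per kb moved from 17.7 to 31.1 in WT, above Fpr1 (27.7). No reads were removed for this, so 31.1 is too high if reads of shared sequence were counted.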
